A study of Mus musculus with 8 samples.

Results

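The genes described here are 9 genes that TGF-beta signaling is known to switch on or that feed back on it: Smad7, Skil, Pmepa1, Ldlrad4, Tgfbi, Ltbp2, Thbs1, Bhlhe40 and Tgfb1i1. They were taken by symbol, as 9 of the 50578 genes in the deposited count table, and each symbol matched 1 row. Mouse embryonic fibroblasts (MEFs) of wild-type genotype at passages 3 to 5, isolated from the embryos of a C57BL/6J mouse, served as control or received 1 of 3 small molecules at 10 µM: CHIR-99021, LY-364947 or carbidopa. There were 2 RNA-seq libraries per group and 8 in all. The sample labels spell the inhibitor LY-364747 and call the treated cells hepatic-like, and neither a vehicle for the controls nor the treatment time of these libraries is given in the sources used here. LY-364947 blocks the kinase of the type I TGF-beta receptor. CHIR-99021 blocks GSK3, a kinase that restrains Wnt signaling. Carbidopa is a drug that blocks aromatic-L-amino-acid decarboxylase.

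TGF-beta binds a pair of receptor kinases, which phosphorylate Smad2 and Smad3. These join Smad4, enter the nucleus and bind DNA at short Smad binding elements. In fibroblasts the pathway is known for raising matrix and contractile genes, and it also raises its own brakes. Among the brakes, Smad7 blocks the receptor, Skil (SnoN) represses Smad complexes in the nucleus, and the membrane proteins Pmepa1 and Ldlrad4 keep Smad2 and Smad3 from the receptor.

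The letters CAGAC are the core of the CAGA box, a type of Smad binding element, and are not in the palindromic element GTCTAGAC. The promoter windows of Ltbp2 and Tgfbi are shown because these were the genes matched to a window. Both were lower under LY-364947 than in MEFs, but under CHIR-99021 Ltbp2 kept most of its level whereas Tgfbi was nearly lost. The windows are RefSeq's for GRCm38.p6, and 2 of the 9 genes matched. Each window runs from 250 bases before to 50 bases after the gene's start in RefSeq. For both genes this start differs from the GENCODE M21 position given further below, and distances of matches count from the RefSeq start. Capitals mark CAGAC, or GTCTG where CAGAC is on the other strand. Ltbp2 lies on the minus strand at chr12:84876442-84876741 and Tgfbi on the plus strand at chr13:56609336-56609635.
Ltbp2: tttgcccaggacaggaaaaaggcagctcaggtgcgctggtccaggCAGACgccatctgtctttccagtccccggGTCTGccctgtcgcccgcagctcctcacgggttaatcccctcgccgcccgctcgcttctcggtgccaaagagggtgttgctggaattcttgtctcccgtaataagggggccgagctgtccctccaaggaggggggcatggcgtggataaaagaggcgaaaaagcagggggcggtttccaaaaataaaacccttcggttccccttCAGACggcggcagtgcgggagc
Tgfbi: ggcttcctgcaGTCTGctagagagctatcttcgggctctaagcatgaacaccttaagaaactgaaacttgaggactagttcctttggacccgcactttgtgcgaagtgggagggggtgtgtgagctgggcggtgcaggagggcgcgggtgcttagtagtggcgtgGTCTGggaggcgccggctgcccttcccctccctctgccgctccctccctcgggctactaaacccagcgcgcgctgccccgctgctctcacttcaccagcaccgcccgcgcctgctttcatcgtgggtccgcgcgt
Ltbp2 held 3 matches, which begin 205 and 176 bases before its start and 28 bases after it. Tgfbi held 2, at 239 and 85 bases before its start. A match of 5 letters is common, since 49.6% of all 32851 windows of this length held CAGAC on either strand. The palindromic element GTCTAGAC (0.213% of windows), the CAGA box AGCCAGACA (0.387%, which includes CAGAC), the AP-1 motif TGANTCA (7.81%) and the E-box CACGTG (7.15%) were searched on both strands and matched neither window.

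The libraries held 15039566 to 20504338 counts. Of the genes listed, 15154 had enough reads for the test, all 9 of these genes among them. Levels are given as normalized CPM, that is, reads scaled to library size with TMM factors. Differences are log2 fold changes from edgeR's quasi-likelihood test over all 8 libraries, and a gene is said to rise or fall where its p, adjusted by the Benjamini-Hochberg method over all genes tested, was under 0.05. The labels do not say that replicates came from separate cultures, so p-values weigh differences against a spread between libraries that may be technical. In the main fit that spread is estimated over all groups together, the carbidopa libraries included. Carbidopa libraries differed from each other most, by 34.6 times the chi-square value of sampling noise against 4.31 to 9.21 times in the other groups. For the 9 genes, the higher of 2 replicates was 1.00 to 1.38 times the lower (median 1.08 over 36 pairs). In bulk RNA, fewer cells of a type and less RNA per cell cannot be told apart.

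Under carbidopa and under LY-364947, 8 of the 9 genes fell and Pmepa1 rose. Among all genes tested, 19.7% were lower and 18.0% higher under carbidopa, and 17.2% were lower and 13.7% higher under LY-364947. Under CHIR-99021, 5 genes fell (20.1% of all genes tested were lower), Pmepa1 rose (18.7% were higher), and Skil, Bhlhe40 and Tgfb1i1 did not pass the threshold. For the 9 genes together, log2 fold changes had a median of -2.08 under carbidopa, -2.06 under LY-364947 and -0.74 under CHIR-99021, against 0.037, 0.028 and 0.043 over all genes tested. The comparisons share the MEF libraries, so their values are set side by side and not counted as separate evidence.

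**Figure D1:**
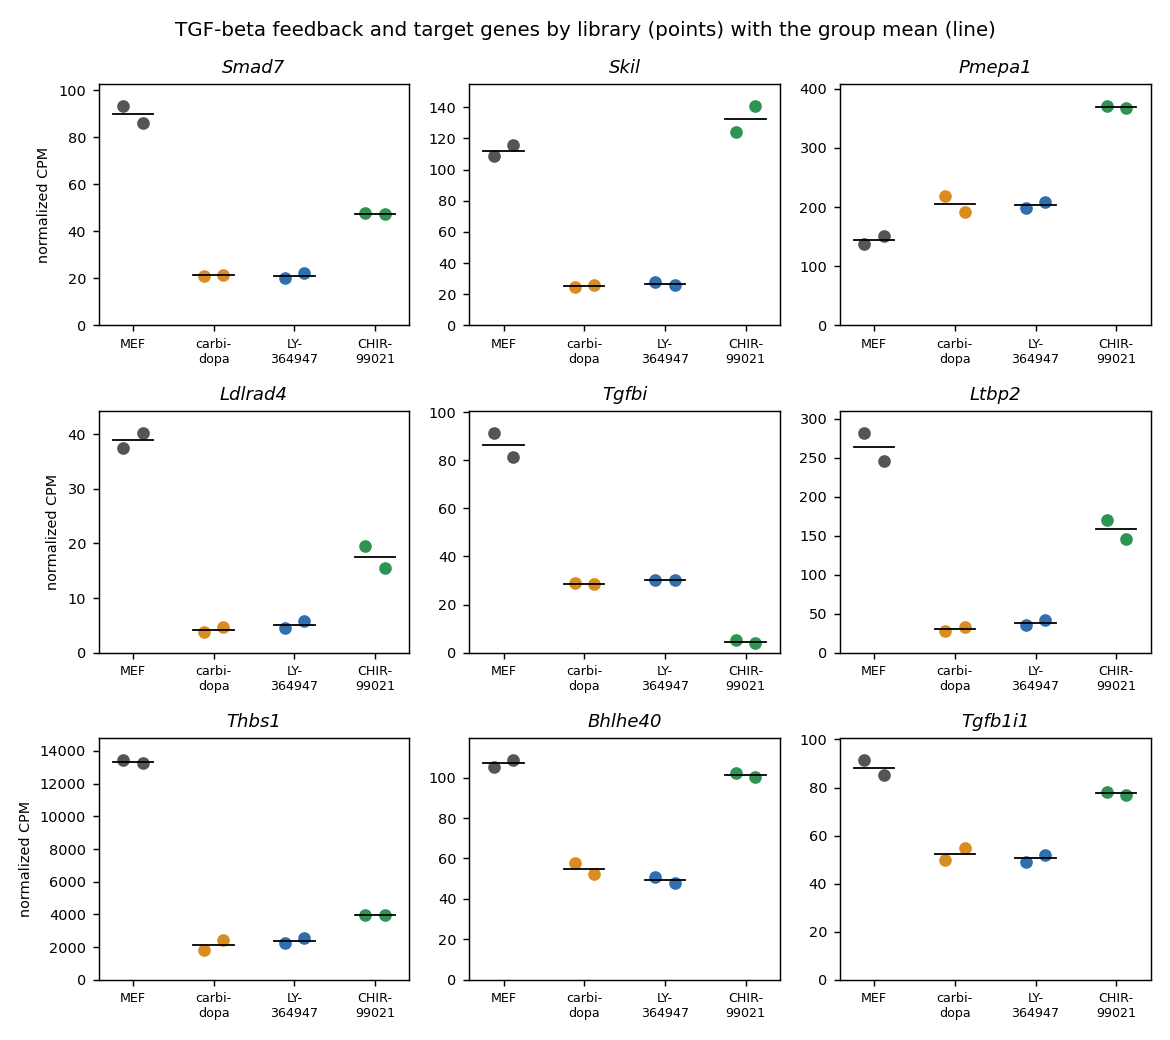
Normalized CPM (y axis, linear, from 0) of each of the 9 genes in the 8 libraries, 1 panel per gene, with points for libraries and a line for the mean of each group of 2. Tgfbi is lowest under CHIR-99021 and Pmepa1 is lowest in MEFs. In the other panels the carbidopa and LY-364947 points lie below both the MEF and the CHIR-99021 points. How many of all genes tested show such a separation was not counted.

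Smad7, the inhibitory Smad, had 93.4 and 86.1 CPM in the MEF libraries (1256 and 1335 reads). It had 20.9 and 21.6 CPM under carbidopa, 20.0 and 22.3 under LY-364947 and 47.7 and 47.4 under CHIR-99021. The carbidopa and LY-364947 libraries overlapped each other, and the CHIR-99021 libraries lay between them and MEFs without overlap. Smad7 was 4.22-fold lower under carbidopa (log2 fold change -2.08, standard error 0.11, adjusted p = 2.46e-07) and 4.25-fold lower under LY-364947 (-2.09, 0.11, 2.48e-07). Under CHIR-99021 it was 1.89-fold lower than in MEFs (-0.92, 0.10, adjusted p = 6.46e-05).

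Skil separated the treatments more widely. MEFs had 109 and 116 CPM, against 24.9 and 26.0 under carbidopa and 27.9 and 25.9 under LY-364947. The CHIR-99021 libraries had 124 and 141 CPM, both above the MEF libraries. The fall was 4.40-fold under carbidopa (log2 fold change -2.14, standard error 0.11, adjusted p = 2.36e-07) and 4.17-fold under LY-364947 (-2.06, 0.11, 3.18e-07). The log2 fold change under CHIR-99021 was 0.24 (95% interval 0.013 to 0.47, adjusted p = 0.0888), which did not pass the threshold. It passed without carbidopa replicate 1 or carbidopa replicate 2 (adjusted p = 0.0274 and 0.0280), where the spread is estimated from fewer libraries, and in a fit of the MEF and CHIR-99021 libraries alone (0.0406).

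Ldlrad4 had the fewest reads of these brakes in every library. It had 37.5 and 40.3 CPM in MEFs (504 and 624 reads), 3.72 and 4.71 under carbidopa (79 and 101 reads), 4.43 and 5.80 under LY-364947 (79 and 109 reads) and 19.5 and 15.4 under CHIR-99021 (338 and 266 reads). Its level was 10.8% of the MEF mean under carbidopa and 13.2% under LY-364947, against 44.9% under CHIR-99021. The log2 fold changes from MEF were -3.20 (standard error 0.19, adjusted p = 6.30e-07), -2.92 (0.19, 1.19e-06) and -1.16 (0.17, 3.85e-04). In the annotation, 2798 of the 5371 exonic bases of Ldlrad4 lie over exons of Fam210a on the opposite strand, and whether the counting used strand is not given in the sources used here. Fam210a did not fall: it had 67.7 and 71.4 CPM in MEFs and 89.1 to 116 CPM in the treated libraries, higher by 0.50, 0.67 and 0.47 on the log2 scale under carbidopa, LY-364947 and CHIR-99021 (adjusted p = 0.0075, 0.00139 and 0.00892).

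Pmepa1 rose where the other brakes fell under carbidopa and LY-364947, and it rose under CHIR-99021 too. It had 138 and 151 CPM in MEFs (1855 and 2336 reads), 219 and 192 under carbidopa, 199 and 208 under LY-364947 and 371 and 367 under CHIR-99021. All 6 treated libraries lay above both MEF libraries. The rise was 1.42-fold under carbidopa (log2 fold change 0.51, standard error 0.10, adjusted p = 0.00334), 1.41-fold under LY-364947 (0.50, 0.10, 0.00420) and 2.56-fold under CHIR-99021 (1.36, 0.10, 4.10e-06). Without MEF replicate 1, which leaves that group with 1 library, the first and second rises lost their calls at 0.45 and 0.43 on the log2 scale (adjusted p = 0.0563 and 0.0694). GENCODE M21 lists no other gene over Pmepa1.

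Ltbp2, Thbs1 and Tgfbi are secreted into the matrix. Ltbp2 is a fibrillin-related protein of elastic fibres, and despite its name it is not known to bind latent TGF-beta. It had 282 and 245 CPM in MEFs, 28.3 and 33.2 under carbidopa, 35.1 and 41.6 under LY-364947 and 170 and 146 under CHIR-99021. The carbidopa and LY-364947 libraries were thus at 11.7% and 14.5% of the MEF mean, and the CHIR-99021 libraries at 60.0%. The log2 fold changes from MEF were -3.10 (standard error 0.14, adjusted p = 1.16e-07), -2.78 (0.14, 2.29e-07) and -0.74 (0.13, 0.00151). An antisense gene over part of its exons, D030025P21Rik, had 63 reads in all 8 libraries together.

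Thbs1 encodes thrombospondin-1, which can release active TGF-beta from its latent complex. It was the 4th most abundant gene in both MEF libraries and took 1.20% and 1.16% of all their reads. It had 13451 and 13240 CPM in MEFs, 1823 and 2445 under carbidopa, 2240 and 2560 under LY-364947 and 3989 and 3991 under CHIR-99021. The carbidopa and LY-364947 libraries overlapped, and every treated library lay far below MEFs. The falls were 6.25-fold under carbidopa (log2 fold change -2.64, standard error 0.15, adjusted p = 4.00e-07), 5.56-fold under LY-364947 (-2.48, 0.15, 6.67e-07) and 3.34-fold under CHIR-99021 (-1.74, 0.14, 6.45e-06). Per length of exon, Thbs1 had 2198 RPKM in MEFs, and the other 8 genes had from 7.24 (Ldlrad4) to 32.2 (Ltbp2). Next to Ltbp2 (32.2 ± 3.2 RPKM, SD, n = 2) in that order stood Pmepa1 (29.4 ± 1.8), and the levels of Ltbp2 and Pmepa1 did not differ beyond their spread. Those of Tgfbi (22.9 ± 1.9) and Bhlhe40 (22.8 ± 0.50) did not either. The RPKM of Ldlrad4 divides by all its exonic bases, also those over Fam210a, where reads may not have been counted. Its place in that order therefore depends on the strand setting.

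Tgfbi encodes a matrix protein that binds integrins and collagens and is named for its induction by TGF-beta. It had 91.4 and 81.2 CPM in MEFs (1229 and 1258 reads), 28.9 and 28.4 under carbidopa, 30.1 and 30.0 under LY-364947 and 5.30 and 3.83 under CHIR-99021 (92 and 66 reads). The CHIR-99021 libraries were the lowest here, at 5.29% of the MEF mean against 33.2% under carbidopa and 34.8% under LY-364947. The fall was 18.9-fold under CHIR-99021 (log2 fold change -4.24, standard error 0.16, adjusted p = 2.68e-08), 3.01-fold under carbidopa (-1.59, 0.13, 6.17e-06) and 2.87-fold under LY-364947 (-1.52, 0.13, 8.87e-06).

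Macrophages also express Tgfbi, and the sum of macrophage markers was also below MEFs under each treatment and lowest under CHIR-99021. The summed level of 16 macrophage markers was 1345 and 1392 CPM in MEFs, 436 and 419 under carbidopa, 313 and 325 under LY-364947 and 105 and 112 under CHIR-99021. That is 31.2%, 23.3% and 7.93% of the MEF mean. Of the 15 markers that could be tested, 14 fell under carbidopa, 14 under LY-364947 and 15 under CHIR-99021. Among all genes tested, 19.7%, 17.2% and 20.1% fell. The defining markers Ptprc, Csf1r, Adgre1 and Cd68 had reads in every library, and the one marker at 0 anywhere was Aif1, in 1 CHIR-99021 library, with 0.26 CPM or less in all libraries. Lyz2, the most abundant marker, weighs most in the sum, with 738 and 758 CPM in MEFs and 47.8 and 53.8 under CHIR-99021. The part of macrophage RNA in the level of Tgfbi was not tested. Of 8 fibroblast markers, 6 fell and 1 rose under each treatment, and they summed to 14441 and 14542 CPM in MEFs, 5577 and 5794 under carbidopa, 7368 and 6581 under LY-364947 and 5310 and 5455 under CHIR-99021. All 8 fibroblast markers had reads in every library, while 6 endothelial markers summed to 16.8 to 19.6 CPM in MEFs and 11.3 to 15.6 CPM in the treated libraries. The sum of 6 epithelial markers was low but moved the other way, from 3.10 to 4.16 CPM in MEFs to 9.82 to 21.4 CPM in the treated libraries. Krt19 made up most of each sum, with 3.20 and 2.32 CPM in MEFs and 6.09 to 19.2 CPM in the treated libraries. Epcam, Cdh1 and Krt8 had too few reads for the test. Of the 3 that could be tested, Krt19 rose under each treatment, by 2.48, 1.77 and 1.36 on the log2 scale under carbidopa, LY-364947 and CHIR-99021 (adjusted p = 1.14e-04, 0.00139 and 0.00652). Krt18 and Cldn4 rose under CHIR-99021 (adjusted p = 0.00101 and 7.72e-04). Under carbidopa and LY-364947 neither passed the threshold (adjusted p = 0.0633 and 0.445 for Krt18, 0.0804 and 0.216 for Cldn4). The part of the epithelial markers in the changes of the 9 genes was not tested. Tie1 was at 0 in 7 libraries, and Epcam and Cdh1 were at 0 in both MEF libraries. Col1a1 and Col1a2 are in the fibroblast list and also in the list of matrix targets. They weigh most in the fibroblast sum of MEFs, with 4076 and 3960 CPM for Col1a1 and 3845 and 3864 for Col1a2. Under carbidopa they had 688 and 666 CPM (Col1a1) and 975 and 985 (Col1a2). Under CHIR-99021 they had 1387 and 1386 CPM (Col1a1) and 763 and 800 (Col1a2).

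**Figure D2:**
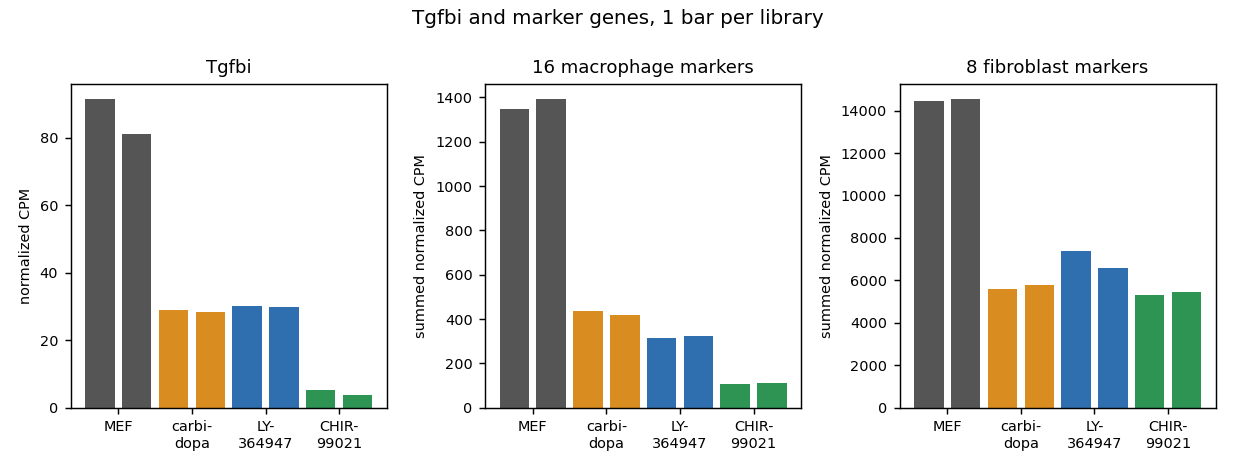
Normalized CPM of Tgfbi (left), of 16 macrophage markers summed (middle) and of 8 fibroblast markers summed (right), with 1 bar per library on linear axes from 0. Tgfbi and the macrophage markers are both lowest under CHIR-99021 (5.30 and 3.83 CPM, and 105 and 112 CPM). The fibroblast markers sum to similar levels under carbidopa and CHIR-99021, but the single markers differ. Of these 8 markers, 2 (Col1a1 and Pdgfrb) were higher and 3 (Col1a2, Thy1 and Dcn) lower under CHIR-99021 than under carbidopa. The matrix targets Col1a1 and Col1a2 weigh most in the sum of MEFs.

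Bhlhe40 and Tgfb1i1 act in the nucleus and at focal adhesions, and under carbidopa and LY-364947 they changed least among the genes that fell. Bhlhe40, a transcriptional repressor of the circadian clock that TGF-beta and serum induce, had 105 and 109 CPM in MEFs. It had 57.6 and 52.2 CPM under carbidopa, 51.0 and 48.0 under LY-364947 and 102 and 100 under CHIR-99021. It fell by 0.96 on the log2 scale under carbidopa (standard error 0.10, adjusted p = 3.48e-05) and by 1.11 under LY-364947 (0.10, 1.32e-05). Under CHIR-99021 the difference was -0.08 (95% interval -0.30 to 0.14, adjusted p = 0.558). Tgfb1i1 encodes Hic-5, a LIM protein of focal adhesions. Its levels were 91.5 and 85.0 CPM in MEFs, 49.9 and 54.6 under carbidopa, 49.0 and 52.1 under LY-364947 and 78.2 and 77.0 under CHIR-99021. It fell by 0.76 (0.10, adjusted p = 2.23e-04) and 0.80 (0.10, 1.52e-04) under carbidopa and LY-364947. Under CHIR-99021 the difference was -0.18 (95% interval -0.41 to 0.037, adjusted p = 0.168), so a small fall could not be told from none.

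**Figure D3:**
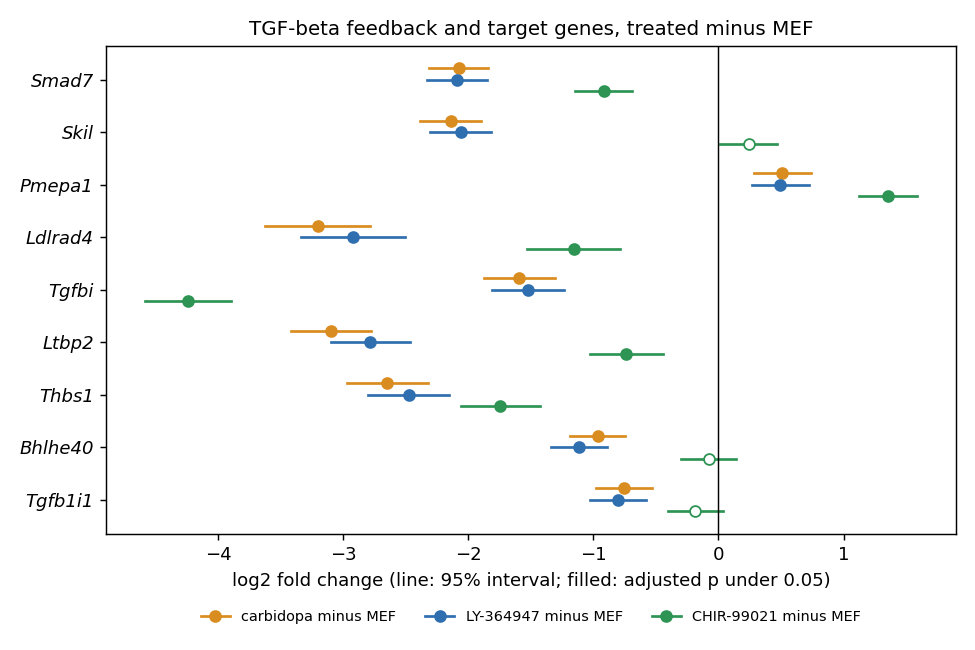
The log2 fold change of each of the 9 genes (rows) from MEF under carbidopa, LY-364947 and CHIR-99021, as points with 95% intervals derived from edgeR's test. Filled points passed an adjusted p under 0.05; the 3 open points are Skil, Bhlhe40 and Tgfb1i1 under CHIR-99021.

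The 9 genes differed between CHIR-99021 and the receptor inhibitor. Under CHIR-99021, 8 of the 9 were higher than under LY-364947, where 6.45% of all genes tested were higher, and Tgfbi was lower, where 7.69% were lower. The median log2 difference was 1.03, against 0.0059 over all genes. Among the 8 higher genes Skil differed most, at 2.30 (standard error 0.11, adjusted p = 2.91e-06), and it had the 5th smallest p of all genes tested. Ltbp2 followed with 2.04 (0.14, 1.92e-05) and Ldlrad4 with 1.77 (0.19, 2.63e-04). The differences of Smad7, Bhlhe40, Pmepa1, Thbs1 and Tgfb1i1 were 1.17, 1.03, 0.86, 0.73 and 0.62. Tgfbi was lower under CHIR-99021 (log2 difference -2.72, a 6.58-fold difference, standard error 0.15, adjusted p = 6.89e-06). Without LY-364947 replicate 1, which leaves that group with 1 library, Thbs1 and Tgfb1i1 lost their calls at log2 differences of 0.63 and 0.57 (adjusted p = 0.0955 and 0.0638).

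Against carbidopa, the same 8 genes were higher under CHIR-99021 (6.62% of all genes tested were) and Tgfbi was lower (8.08% were). The log2 differences ran from 0.57 (Tgfb1i1, standard error 0.10, adjusted p = 0.00436) to 2.38 (Skil, 0.11, 1.34e-06), with 2.36 for Ltbp2, 2.05 for Ldlrad4 and 1.16 for Smad7. The log2 difference of Tgfbi was -2.65 (standard error 0.15, adjusted p = 6.41e-06). The CHIR-99021 libraries are common to both comparisons.

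Between LY-364947 and carbidopa none of the 9 genes was called by edgeR, where 0.0132% of all genes tested (2 genes) were. DESeq2's Wald test called none of the 9 either. Ltbp2 alone had an unadjusted p under 0.05: it was higher under LY-364947 by 0.32 on the log2 scale (95% interval 0.0098 to 0.63, adjusted p = 0.519). The widest interval was that of Ldlrad4, -0.18 to 0.74, and the intervals of Smad7 (-0.25 to 0.23), Skil (-0.17 to 0.32), Pmepa1 (-0.24 to 0.21) and Tgfb1i1 (-0.27 to 0.18) were narrower. So were those of Tgfbi, Thbs1 and Bhlhe40, at -0.22 to 0.36, -0.14 to 0.48 and -0.37 to 0.071. Without carbidopa replicate 2, Thbs1 and Ltbp2 were higher under LY-364947 by 0.40 and 0.44 (adjusted p = 0.00850 and 0.0475), and 3816 genes in all were then called.

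**Figure D4:**
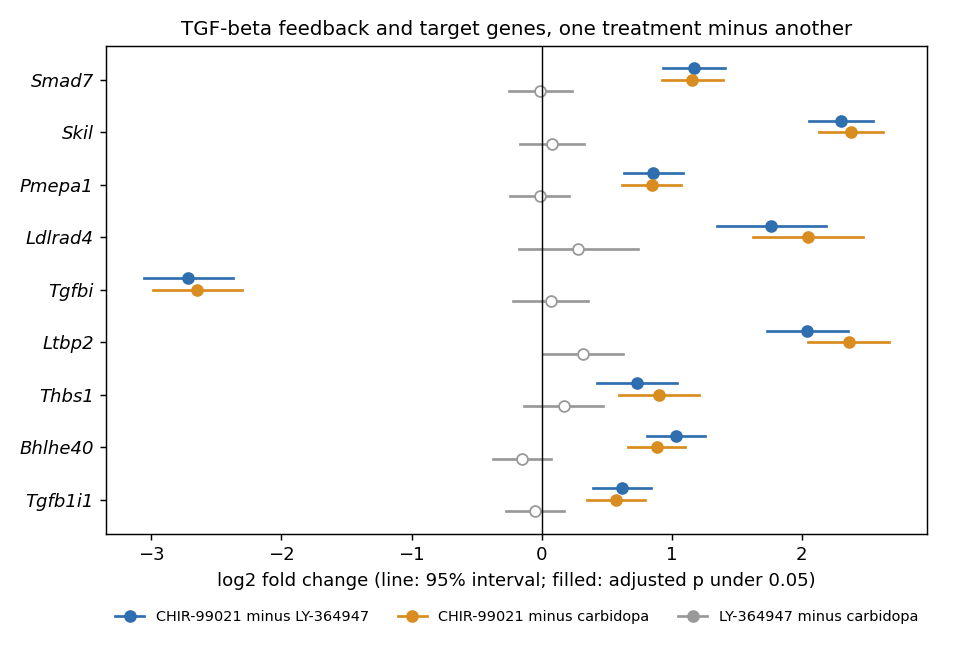
Log2 difference of each of the 9 genes (rows) for CHIR-99021 minus LY-364947, CHIR-99021 minus carbidopa and LY-364947 minus carbidopa, as points with 95% intervals derived from edgeR's test. Points right of 0 are higher in the first-named treatment; filled points passed an adjusted p under 0.05, and none did for LY-364947 minus carbidopa.

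The 9 genes followed several patterns over the 8 libraries. Likeness was measured as the root mean square difference of log2 CPM, each gene centred on its own mean. The most alike were Ldlrad4 and Ltbp2 (0.18), Bhlhe40 and Tgfb1i1 (0.19), and Smad7 and Thbs1 (0.32). Tgfbi was at least 1.44 from each of the others, and its nearest genes among all tested were Atp8b4 (0.21) and Tlr7 (0.25). The genes nearest to Pmepa1 were Dctd (0.069) and Ppp1r18 (0.077), and Tgfb1i1, the nearest of the 9, was 0.61 away. Nearest to Skil were Fabp4 (0.18) and Runx3 (0.19), to Smad7 Gpr149 (0.087) and Pxdc1 (0.13), and to Thbs1 Myo7a (0.13) and Rnf150 (0.14). Fbln2 was near both Ldlrad4 (0.14) and Ltbp2 (0.23), Dact1 was near Ldlrad4 (0.24), and Kif26b near Ltbp2 (0.18). Gdnf (0.096) and Csf1 (0.12) were nearest to Bhlhe40, and Slc7a6 (0.050) and Lrrc59 (0.062) to Tgfb1i1.

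Other genes of the pathway were followed in lists. Of all genes tested, 19.7% fell and 18.0% rose under carbidopa, and 17.2% fell and 13.7% rose under LY-364947. Under CHIR-99021, 20.1% fell and 18.7% rose. Compared with LY-364947, 6.45% of all genes tested were higher under CHIR-99021 and 7.69% lower. The counts in each list below are to be read beside these shares. Of 15 other immediate targets of TGF-beta, 8 fell and 4 rose under carbidopa, 8 fell and 2 rose under LY-364947, and 2 fell and 8 rose under CHIR-99021. Under CHIR-99021, 11 of the 15 were higher than under LY-364947 and Snai2 was lower. Ctgf, a matricellular protein, fell by 3.63 on the log2 scale under LY-364947 (standard error 0.17, adjusted p = 1.01e-07) and was 2.48 higher under CHIR-99021 than under LY-364947 (0.16, 1.46e-05). Angptl4, an inhibitor of lipoprotein lipase, was 1 of the 2 that rose under LY-364947, by 2.82 (0.19, 1.64e-06).

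All 13 matrix and contractile targets fell under carbidopa and LY-364947, and 12 fell under CHIR-99021, the exception being Tnc, at 0.43 on the log2 scale (adjusted p = 0.0549). Under LY-364947 the log2 fold changes were -7.45 for Eln, -4.32 for Acta2 and -3.18 for Timp1, which encode elastin, smooth muscle actin and an inhibitor of matrix metalloproteases. Between CHIR-99021 and LY-364947, 5 of the 13 were higher under CHIR-99021 and 3 lower. The contractile genes Cnn1 and Tagln were higher under CHIR-99021 by 2.23 (standard error 0.21, adjusted p = 1.34e-04) and 1.40 (0.16, 3.34e-04). For Acta2 the difference was 0.14 (0.16, adjusted p = 0.594). The 3 lower genes were collagens, with log2 differences of -0.50 for Col1a1, -0.42 for Col1a2 and -0.34 for Col3a1 (adjusted p = 0.0252, 0.0148 and 0.0455).

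Of 15 Smads and Smad regulators, 8 fell and 4 rose under carbidopa, 6 fell and 4 rose under LY-364947, and 5 fell and 4 rose under CHIR-99021. Of all genes tested, 19.7% fell and 18.0% rose under carbidopa, 17.2% and 13.7% under LY-364947, and 20.1% and 18.7% under CHIR-99021. Under LY-364947, the common partner Smad4 fell by 1.47 (standard error 0.10, adjusted p = 2.40e-06) and the decoy receptor Bambi rose by 2.78 (0.21, 3.65e-06). Between CHIR-99021 and LY-364947, 6 of the 15 were higher under CHIR-99021 and none lower by edgeR's test, with Tgif1, a Smad corepressor, at 0.65 (0.10, 0.00275). Among 10 ligand and receptor genes, 8, 8 and 6 fell and 1, 1 and 2 rose under carbidopa, LY-364947 and CHIR-99021. The ligands went different ways under LY-364947: Tgfb2 rose by 2.47 (0.12, 1.74e-07), while Tgfb3 fell by 2.05 (0.10, 2.29e-07) and Tgfb1 by 0.98 (0.12, 1.61e-04). Between CHIR-99021 and LY-364947, 2 of the 10 were higher under CHIR-99021, 1 was lower and 7 were not called. Tgfb1 and Tgfb3 were higher by 0.87 (0.12, 0.00130) and 0.70 (0.10, 0.00171), and the coreceptor Tgfbr3 was lower, with a log2 difference of -0.51 (0.13, 0.0228).

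Of 11 genes of latency and activation, 10 could be tested. In these, 7, 6 and 6 fell and 3, 3 and 3 rose under carbidopa, LY-364947 and CHIR-99021. Ltbp4 fell by 1.78 and Itgb5 by 1.31 under LY-364947 (standard errors 0.13 and 0.11, adjusted p = 3.79e-06 and 7.02e-06). Of the 3 Id genes, which BMP signaling through other Smads induces, all rose under carbidopa and LY-364947, and under CHIR-99021 Id1 and Id3 rose and Id2 fell. Id3 rose by 2.77 on the log2 scale under LY-364947 (0.29, 4.65e-05).

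**Figure D5:**
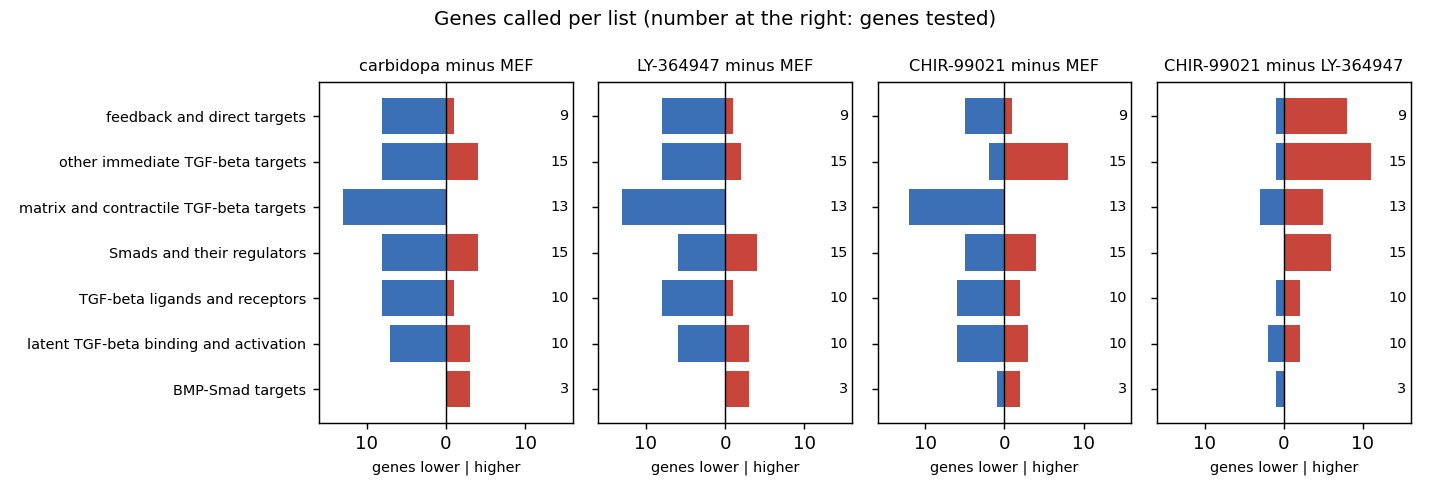
Number of genes lower (left of 0) and higher (right of 0) at an adjusted p under 0.05 in edgeR's test, for the 9 genes and 6 lists of other pathway genes (rows) in 4 comparisons (panels), with the number tested at the right. The immediate targets and the 9 genes lie mostly left of 0 for LY-364947 minus MEF and mostly right of 0 for CHIR-99021 minus LY-364947.

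The 9 genes lie on 7 chromosomes of mm10, in the positions of GENCODE M21. Smad7 (ENSMUSG00000025880, chromosome 18, 75367529 to 75395935) lies 7.10 Mb from Ldlrad4 (ENSMUSG00000024544, 67933257 to 68268630). Thbs1 (ENSMUSG00000040152, chromosome 2, 118111876 to 118127133) lies 55.1 Mb from Pmepa1 (ENSMUSG00000038400, 173224458 to 173276533). Skil (ENSMUSG00000027660) lies on chromosome 3 from 31095058 to 31122577, and Bhlhe40 (ENSMUSG00000030103) on chromosome 6 from 108660629 to 108666925. Tgfb1i1 (ENSMUSG00000030782) lies on chromosome 7 from 128246812 to 128255699, Ltbp2 (ENSMUSG00000002020) on chromosome 12 from 84783212 to 84876532, and Tgfbi (ENSMUSG00000035493) on chromosome 13 from 56609523 to 56639562.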

How the data were processed

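RNA was sequenced from control MEFs and from MEFs given 1 of the 3 molecules. Titles gave the group and the replicate number. The authors mapped reads to mm10 with STAR 2.4.2a and counted them per gene with featureCounts. The counts were deposited as whole numbers without normalization. The annotation release and the strand setting are not given in the sources used here. Library kits differ between the labels (SMARTER) and the methods (NEBNext Ultra). Of the gene identifiers, 99.6% were found in GENCODE M21.

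Counts were analysed in R 4.3.3 with edgeR 4.0.16 (filterByExpr, TMM, quasi-likelihood test, group as the only term, all 8 libraries, 6 comparisons, two-sided). RPKM used the union of exons. Scripts were checked on simulated data. The genes, lists, markers and motifs were chosen with earlier results of these data known. The genes named from each list are those with the smallest p, up to 3, in CHIR-99021 minus LY-364947 or LY-364947 minus MEF; not all genes that this rule names are reported here. The exceptions, named after their values were seen, are Snai2, Tnc, the collagens, the Id genes with CHIR-99021, Fam210a and the markers. The 2 genes nearest to each of the 9 are named, without Gm and Rik genes. Alternatives were DESeq2 1.42.0, RLE size factors, no filter, at least 10 counts in every library, fits of only the groups compared, a block for replicate number, and fits without 1 library.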

Additional observations from a re-analysis of the deposited data

How the results depend on the processing

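Of the 324 log2 fold changes of the 9 genes under alternatives that keep all replicates, 322 kept their direction and side of the threshold; Skil passed for CHIR-99021 minus MEF in the fit of the compared groups alone, so that 2 genes and not 1 were higher, and Smad7 changed sign for LY-364947 minus carbidopa with RLE size factors (0.0011). With 1 library left out, 417 of 432 did, 4 lost and 4 gained a call and 7 changed sign, all 7 for LY-364947 minus carbidopa: the ranges were -0.093 to 0.072 for Smad7, -0.11 to 0.080 for Pmepa1, -0.028 to 0.40 for Thbs1 and -0.11 to 0.018 for Tgfb1i1. Left-out fits leave an arm with 1 library, which is assumed to vary like the others. In them the genes called higher numbered 0 to 1 for carbidopa and for LY-364947 minus MEF, 1 to 2 for CHIR-99021 minus MEF, 6 to 8 for CHIR-99021 minus LY-364947 and 0 to 2 for LY-364947 minus carbidopa. Calls over all genes ran from 3142 to 7996, 2841 to 6519 and 3433 to 7800 for carbidopa, LY-364947 and CHIR-99021 minus MEF, from 715 to 4632 and 663 to 4228 for CHIR-99021 minus carbidopa and minus LY-364947, and from 2 to 3816 for LY-364947 minus carbidopa. In fits of the compared groups alone, 1027, 3673 and 0 genes were called in the last 3 comparisons; for LY-364947 minus carbidopa DESeq2 called 15 genes and edgeR without a filter 329. The cause was not tested. Replicate numbers share no stated culture, and deviations of same-numbered libraries correlated by -0.16 to 0.13 between groups. A replicate block gave 5473, 4424, 5722, 2010, 1973 and 2 calls over all genes and changed no call of the 9 genes. The lowest count of the 9 genes in any library was 66 reads (Tgfbi under CHIR-99021), so counting error is widest there.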
